A study of Mus musculus with 14 samples.

Results

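The mouse miRNA annotations with late accession numbers, miR-5000 and above, made up 67 of the 1250 lines of the deposited count table when a minimum of 50 counts summed over all 14 libraries was asked of them. The table held 498 lines with such numbers, of which 431 stayed under that minimum. Of the 67 annotations, 18 were numbered in the 5000s, 20 in the 6000s, 23 in the 7000s, 5 in the 8000s and 1 above, 28 were named as 3p arms, 20 as 5p arms, and 19 carried no arm. Members were selected on their counts over all libraries, so their totals are a description only. Just inside the minimum were miR-6546-5p, miR-7213-5p and miR-8097, each with 50 counts, all but 1, 0 and 1 of them in lysates. Just outside were miR-5110 (49 counts, 46 of them in exosomes), miR-7033-5p (48 counts, 0 in exosomes) and miR-6983-5p (47 counts, 2 in exosomes).

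The libraries came from mouse bone marrow macrophages, and the labels give excised bone as the tissue. Exosomes purified from culture supernatant gave 4 libraries of macrophages stimulated with the cytokine IL4 and 4 of controls labelled as wild type, and cell lysates gave 3 libraries of each kind. The labels do not give the animals' age or strain, the dose or time of IL4, or the animal or culture behind each library. The p-values therefore rest on library-to-library spread, part or all of which may be technical. Each title carries a date, and within a compartment every date held 1 IL4 and 1 control library, while no date was shared by exosomes and lysates.

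MicroRNAs are RNAs of some 20 bases, cut from hairpin precursors by Drosha and Dicer and loaded into an Argonaute protein, where the bases of the seed, counted from the second to the eighth, guide it to messenger RNAs. A class called mirtrons skips Drosha, because splicing of a short intron releases the hairpin and an arm can then end at the splice site. Names are numbered in order of registration, so late numbers belong to annotations found by deep sequencing, usually at low read counts, after the abundant and conserved families had been named.

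Mature sequences from RefSeq (GRCm38.p6) were found for 55 of the 67. The 12 without one were miR-12191-3p, miR-5107-5p, miR-5134-5p, miR-6539, miR-6952-3p, miR-6979-3p, miR-6983-3p, miR-7212-5p, miR-7219-3p, miR-7666-3p, miR-7682-3p and miR-8097. The first 5 sequences below belong to the annotations that were far higher in exosomes than in lysates, the sixth to an annotation found at moderate levels in every library, and the last pair to those that rose with IL4 in lysates. They are written 5′ to 3′ with the seed (bases 2 to 8) in capitals.
miR-8117: gCUCGUGUggaacagaagggg
miR-5119: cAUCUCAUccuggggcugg
miR-5124a: gGUCCAGUgacuaagagcau
miR-5108: gUAGAGCAcuggaugguuu
miR-7032-3p: aUCCUCUCgguaccgcccugca
miR-5100: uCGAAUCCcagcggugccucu
miR-5114: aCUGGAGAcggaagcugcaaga
miR-7015-3p: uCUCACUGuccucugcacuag

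These 8 share no seed with one another, and no other line of the table with a known sequence had any of their seeds. In GRCm38, miR-8117 lies at chr5:50252823-50252843 (plus strand) in an intron of the pseudogene Gm7205. The annotation of miR-5119, at chr11:98262638-98262656 (plus), is inside an intron of Cdk12, which encodes a kinase of transcription elongation. miR-5124a lies at chr13:40865801-40865820 (plus) in an intron of Gcnt2, a glycosyltransferase gene, and miR-5108 at chr10:61774795-61774813 (plus), antisense to H2afy2, a histone variant gene, so that reads of either strand cannot be told apart unless the counting used strand. miR-7032-3p, at chr5:123996908-123996929 (plus), lies in an intron of Hip1r and stops 1 base short of its end. miR-5100 is at chr11:60728698-60728718 (plus) in an intron of Mief2. miR-5114 is at chr19:44303171-44303192 (plus) in an exon of Scd2, a stearoyl-CoA desaturase gene, coding in some transcripts and 3′ UTR in others. miR-7015-3p, at chr4:120973259-120973279 (minus), lies in an intron of Smap2 and ends on the intron's last base.

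The library totals, against which all counts below are read, differed widely. Exosome libraries held between 28417 and 411671 counts, a span of 14.5-fold, and the 2 largest were those dated 5 April (411671 with IL4 and 199025 in the control). Lysates held 3941480 to 6792079 counts, a span of 1.72-fold. Levels are given as CPM, the counts per 1000000 of the library total. A single count was worth 2.43 to 35.2 CPM in exosomes and 0.147 to 0.254 CPM in lysates. The myeloid miRNAs miR-223-3p, miR-142a-3p, miR-142a-5p, miR-511-3p and miR-155-5p together made up 1.63% to 3.77% of exosome and 1.23% to 3.23% of lysate libraries, with none at 0.

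In the exosome libraries, the counts of miR-8117, miR-5119, miR-5124a and miR-5108 did not grow in proportion to the library total, whereas those of 20 well-known miRNAs, among them let-7a-5p, miR-21a-5p, miR-16-5p and miR-223-3p, were not called as departing from it. Those 20 made up 47.7% to 63.4% of each exosome total, so their proportion to it was in part fixed in advance. miR-7032-3p, though not called, is described with the 4 because all 5 had far higher levels in exosomes than in lysates. miR-8117 had 227, 162, 131 and 112 counts in IL4 exosome replicates 1 to 4 (dated 25 January, 16 March, 5 April and 29 December) and 42, 64, 25 and 122 in the controls of the same dates. Its lowest count, 25, was found in the control library of 5 April, the second largest of the 8. miR-5119 had 137, 58, 174 and 99 counts with IL4 and 119, 72, 79 and 84 in controls. miR-5124a had 35, 32, 37 and 29 with IL4 and 61, 26, 35 and 26 in controls, and its highest count came from the smallest library. miR-5108 had 39, 21, 22 and 27 with IL4 and 31, 17, 29 and 25 in controls. miR-7032-3p, the only one of the 5 named as an arm, had 12, 16, 19 and 3 with IL4 and 4, 20, 20 and 11 in controls. Summed over the 5, exosome counts ran from 188 to 450, a range of 2.39-fold.

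Expressed in CPM, the same counts spread widely between exosome libraries. miR-8117 ranged from 126 to 4537 CPM, miR-5119 from 397 to 4188 CPM, miR-5124a from 89.9 to 2147 CPM, miR-5108 from 53.4 to 1091 CPM and miR-7032-3p from 39.1 to 368 CPM. For miR-8117, miR-5119, miR-5124a and miR-5108 the 2 libraries of 5 April gave the lowest CPM values of the 8. The 5 together took 0.904% and 0.899% of the control and IL4 libraries of 25 January, but 0.0945% and 0.0930% of those of 5 April.

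**Figure D1:**
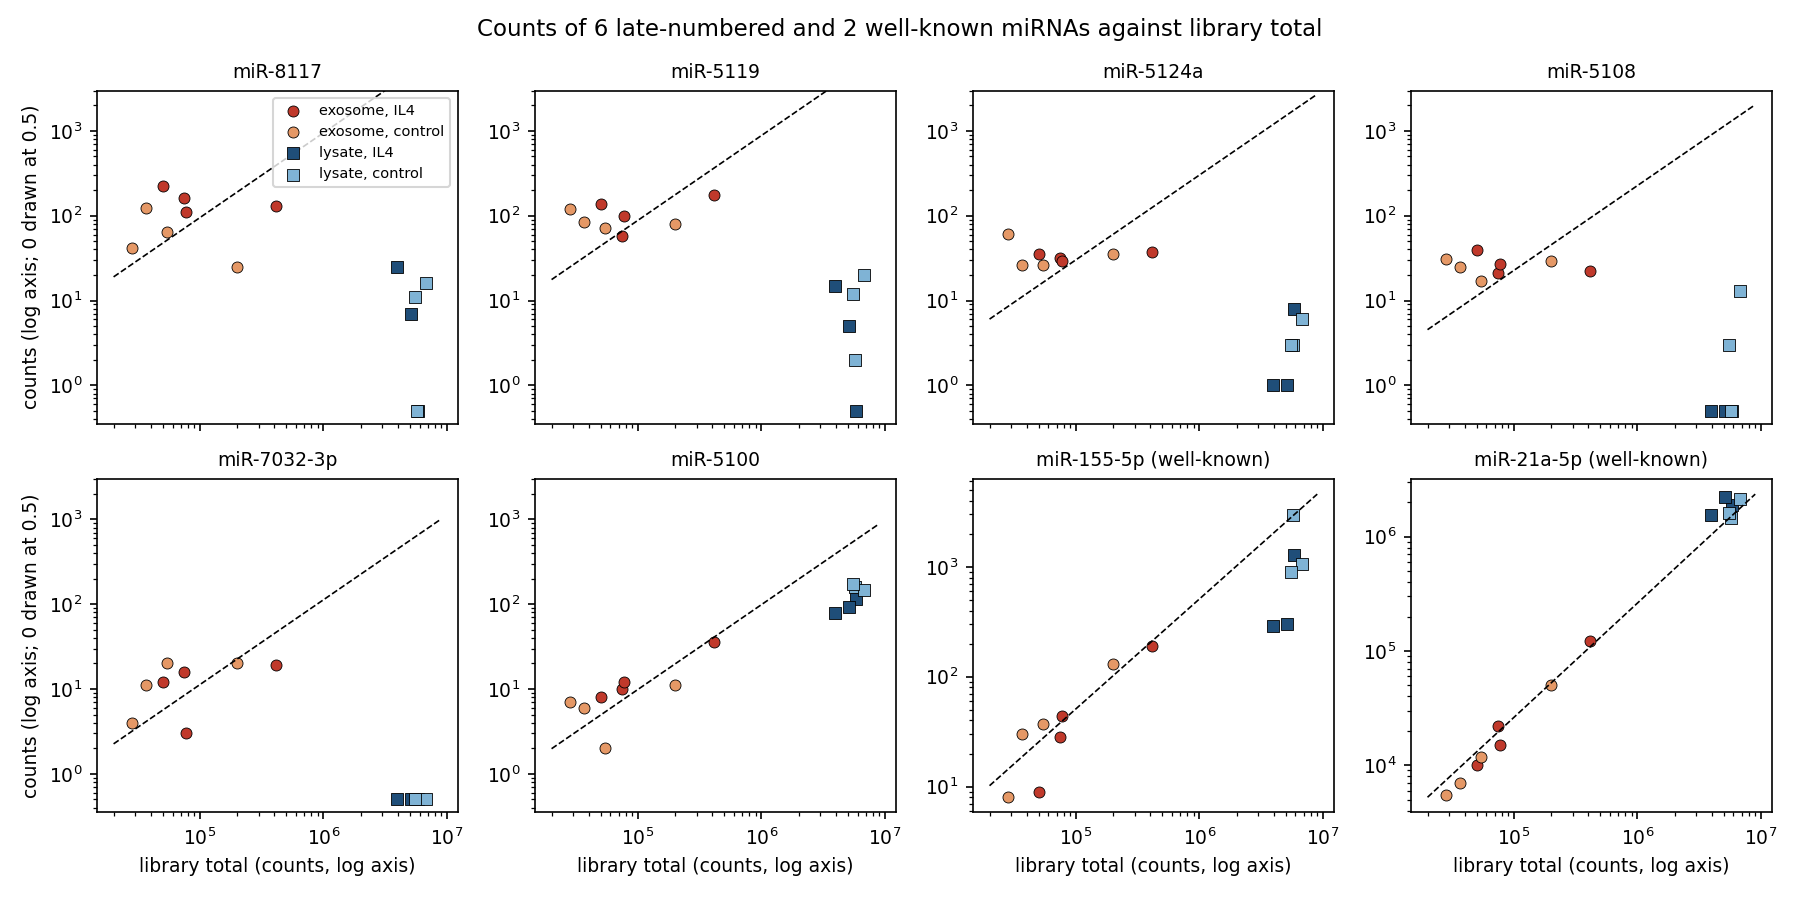
Counts of 6 late-numbered annotations and the well-known miR-155-5p and miR-21a-5p in the 14 libraries (vertical axis, log scale, 0 drawn at 0.5) against the library total (horizontal axis, log scale), with circles for exosomes, squares for lysates and a dashed line for counts in proportion to the total at the level pooled over exosomes. The exosome points of miR-8117, miR-5119, miR-5124a and miR-5108 lie level and cross the line, while those of miR-21a-5p follow it.

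A line's departure from proportion to the library total was tested in the 8 exosome libraries by quasi-likelihood in edgeR, adjusted after Benjamini and Hochberg over all 182 tested lines. The exponent of the count on the total is 1 for counts in proportion to it and 0 for counts that do not change with it. Of all tested lines 4.4% were called (8 of 182), each with an exponent below 1, and 4 of the 6 late-numbered annotations that passed the filter on low counts were among them. That filter asked for a minimum CPM, which a line of few counts reaches more easily in the smaller libraries. Among lines of few counts, passing it thus favours exponents below 1. The 4 of 6 are therefore a description and are not read against the 4.4%. With ranges of ± 2 SE, miR-8117 had an exponent of -0.39 (-0.82 to 0.04, adjusted p = 0.00183), miR-5108 of -0.15 (-0.50 to 0.21, adjusted p = 0.00183), miR-5124a of -0.10 (-0.44 to 0.24, adjusted p = 0.00183) and miR-5119 of 0.01 (-0.34 to 0.37, adjusted p = 0.00521). The ranges of all 4 include 0, a count that does not change with the total. miR-7032-3p (0.34, -0.19 to 0.88, adjusted p = 0.259) and miR-5100 (0.51, 0.01 to 1, adjusted p = 0.434) were not called. The remaining 61 members did not pass the filter.

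None of the 20 well-known miRNAs was called, and the departures of their exponents from 1 lay between -0.26 and 0.25 with a median of 0.01, against a median of 0.02 over all tested lines. These 20 are a large part of the total, and the scaling of libraries sets most lines near proportion. Their result was thus largely fixed beforehand and serves as a reference only. The other 4 called lines were miR-203-3p, miR-203b-5p and miR-205-5p, known from epithelia, with exponents of -1.50, -1.58 and -2.35, and miR-3963, with 0.07 (adjusted p = 0.0181). miR-3963 differed from the 5 late-numbered annotations in its larger lysate counts, which were 73 to 213 per library against 8 to 94 in exosomes. As a share of the total it too was higher in exosomes, with 317 of 931477 counts against 921 of 32986166 in lysates. With the date as a replicate block 0 of the 6 were called, and the departure of miR-5119 changed sign (0.36), while those of miR-8117 (-1.90), miR-5108 (-2.04) and miR-5124a (-1.43) remained below 0 at an adjusted p of 1. Without both libraries of 5 April 0 of the 4 were called, with departures of -1.81 for miR-8117, -2.40 for miR-5108, -2.34 for miR-5124a and -2.32 for miR-5119, and without both libraries of 25 January 2 were called, miR-8117 and miR-5124a. Without control replicate 3 alone the call of miR-5119 was lost (-0.95).

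**Figure D2:**
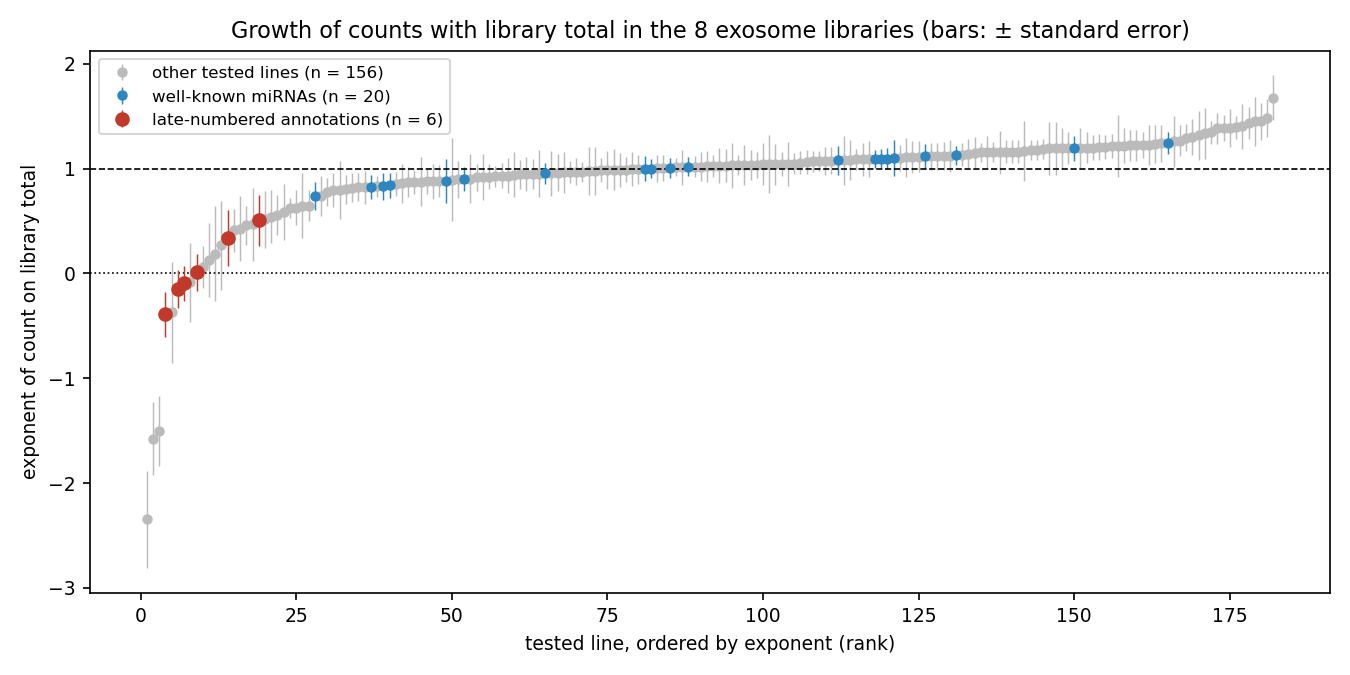
Exponent of the count on the library total (vertical axis, ± standard error) for the 182 lines tested in exosomes, ranked along the horizontal axis. The 6 late-numbered annotations (red) lie between -0.39 and 0.51, below every one of the 20 well-known miRNAs (blue), and the dashed and dotted lines mark 1 (in proportion to the total) and 0 (no change with the total).

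Correlations of log2(count + 1) with the log2 total were computed over the 8 exosome libraries. Among 339 lines with at least 20 exosome counts, 77.6% were called at an adjusted p of 0.05 or less (exact two-sided permutation tests, adjusted over these lines), including 19 of the 20 well-known miRNAs, with a median r of 0.96. Of the 10 late-numbered annotations with that many counts, 2 were called. miR-5107-5p had r = 0.81 and Spearman's rho = 0.83 (exact permutation p = 0.0202 and 0.0167, adjusted 0.0296 and 0.0332), and miR-5100 r = 0.76 and rho = 0.81 (exact permutation p = 0.0303 and 0.0218, adjusted 0.041 and 0.0406). Without the 2 libraries of 5 April, r was 0.78 for miR-5107-5p and 0.29 for miR-5100, so the relation of miR-5100 rested on those 2 libraries. Over the 6 libraries that remain neither call was kept. These correlations held no IL4 term, and on every date the IL4 exosome library had the larger total. As 68 of the 70 exosome counts of miR-5107-5p came with IL4, a relation to the total cannot be told apart from one to IL4. Of the others, miR-8114 and miR-7688-5p had r = 0.68 and 0.67 (exact permutation p = 0.0637 and 0.0661, adjusted 0.0782 and 0.0806), and miR-5129-5p had r = -0.08. For miR-8117, miR-5124a, miR-5108, miR-5119 and miR-7032-3p, r was -0.08, -0.08, -0.21, 0.29 and 0.50, and rho 0.00, 0.10, -0.31, 0.02 and 0.47, with exact permutation p-values of 0.864, 0.848, 0.604, 0.481 and 0.186 for r and 1, 0.83, 0.462, 0.977 and 0.246 for rho. Adjusted p-values of r for these 5 ran from 0.206 to 0.874, and r without the libraries of 5 April was 0.52, -0.58, -0.34, -0.46 and 0.16 in the same order. miR-21a-5p, the most abundant of the well-known set, had r = 0.99 (exact permutation p = 5e-05, adjusted 0.00135). As it held 189000 to 297500 CPM of the exosome libraries, this r is in part that of a part with its whole.

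The same questions could hardly be asked of lysates, where totals spanned 1.72-fold. edgeR's quasi-likelihood test called 0 of 443 lines there (0%), with 11 at an unadjusted p under 0.05, of which 2 were among the 51 late-numbered annotations tested. The 5 of these with the lowest unadjusted p were miR-5123, miR-6516-5p, miR-6546-5p, miR-7212-5p and miR-8114, each with an adjusted p of 1. Of 627 lines with at least 20 lysate counts, 0 were called as correlated with the total by the exact permutation test over 6 libraries (0%).

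Between compartments, 5 late-numbered annotations stood far higher in exosomes, while the other 62, most of whose reads came from the deeper lysates, summed to 580 CPM in exosomes and 317 CPM in lysates. miR-8117, miR-5119, miR-5124a, miR-5108 and miR-7032-3p held 2304 of the 2779 late-numbered counts in exosomes (82.9%) and 151 of 10575 in lysates (1.43%). The lysates, with 35.4 times the total counts, thus held fewer reads of these 5 than the exosomes did. In the order IL4 replicates 1 to 3 and control replicates 1 to 3, miR-8117 had 0, 25, 7, 0, 16 and 11 lysate counts. miR-5119 had 0, 15, 5, 2, 20 and 12, and miR-5124a 8, 1, 1, 3, 6 and 3. miR-5108 had 0 in every IL4 lysate and 0, 13 and 3 in controls, and miR-7032-3p 0 in all 6 lysates. Both lysate libraries of 14 March, replicate 2, held the most of the 5 together in their group (41 and 55 counts, against 5 to 29 in the other 4). For each of the 5 the lowest exosome CPM was above the highest lysate CPM, so the compartments did not overlap. The 5 were picked as those called higher in exosomes both in controls and with IL4. Their lack of overlap thus follows largely from that choice and is a description, and the share of all lines without overlap is not given. Over all 338 lines tested across the 14 libraries, edgeR's quasi-likelihood test called 50.9% between the compartments in controls and 49.4% with IL4.

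Counts pooled over each compartment gave an exosome to lysate ratio of CPM of 531 for miR-8117 (95% interval 408 to 704), 539 for miR-5119 (409 to 724), 452 for miR-5124a (293 to 733) and 467 for miR-5108 (281 to 832). These intervals are exact and cover counting error only. With 0 lysate counts, miR-7032-3p was at least 990-fold higher in exosomes by the exact 95% lower limit, and its pooled exosome level was 1239 times a floor of 3 counts over all lysates. Without IL4 exosome replicate 3, the largest exosome library, the ratios were 811 for miR-8117, 762 for miR-5119, 704 for miR-5124a and 750 for miR-5108. Since counts of miR-8117, miR-5119, miR-5124a and miR-5108 were not in proportion to the exosome total, each ratio depends on which exosome libraries are pooled. Both of the largest were dated 5 April, so a difference by depth cannot be told apart from one by date.

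Of the 338 lines, 29.3% were called higher in exosomes in controls and 30.2% with IL4. Only 11 late-numbered annotations passed the filter, which asked for about 32.7 CPM, and all 11 reached that level in 3 or more exosome libraries while 0 did so in 3 or more lysates. The filter thus kept annotations that are high in exosomes, and the 6 of 11 called higher and 0 lower in each comparison are given without being read against the background. With no filter and all 67 tested, 6 were higher and 4 lower in exosomes in controls, and 7 higher and 4 lower with IL4. The share of all lines called with no filter is not given, so these counts cannot be read as many or few. The 4 lower were miR-5103, miR-5113, miR-6967-3p and miR-7043-3p in controls (adjusted p = 0.0169 to 0.0458) and miR-5103, miR-5104, miR-7015-3p and miR-7062-5p with IL4 (adjusted p = 0.0055 to 0.023). With the filter, 5 of the 6 calls were the same annotations in both comparisons. In controls the log2 difference was 9.48 for miR-5124a (SE 1.19, adjusted p = 2.07e-05), 9.25 for miR-5119 (SE 1.44, adjusted p = 0.000157) and 9.13 for miR-8117 (SE 1.73, adjusted p = 0.000552). With IL4 it was 8.62 for miR-5124a (SE 1.17, adjusted p = 5.16e-05), 9.07 for miR-5119 (SE 1.45, adjusted p = 0.00022) and 9.06 for miR-8117 (SE 1.72, adjusted p = 0.000731). miR-5108 was called in controls (8.39, SE 1.39, adjusted p = 0.000333) and with IL4 (adjusted p = 0.00022), where its lysates had 0 counts and the level was at least 708-fold higher in exosomes by the exact 95% lower limit. miR-7032-3p was called in controls (adjusted p = 6.25e-05) and with IL4 (adjusted p = 0.000127), where its levels were at least 817-fold and at least 318-fold higher by the exact 95% lower limit. The calls of these 5 held in all 20 alternatives run for each comparison.

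The sixth call differed. In controls it was miR-5129-5p, from an intron of Zeb2, with 5, 0, 3 and 4 exosome counts and 15, 15 and 29 lysate counts (log2 difference 3.41, SE 1.27, adjusted p = 0.0352). That call was kept in 13 of 19 alternatives and lost without control exosome replicate 1 or 4, without any single control lysate and without the exosome libraries of 25 January. With IL4 it was miR-5100, with 8, 10, 36 and 12 exosome and 116, 79 and 93 lysate counts (log2 difference 2.07, SE 0.59, adjusted p = 0.00895), which held in 20 of 20. In controls miR-5100 had 7, 2, 11 and 6 exosome and 160, 147 and 173 lysate counts and was not called (1.25, SE 0.62, adjusted p = 0.103), and the difference between these comparisons was not called either (0.83, adjusted p = 1).

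Marker miRNAs of other cell types moved with the compartment too. The erythroid pair miR-451a and miR-144-3p made up 1.39% to 3.35% of exosome libraries and at most 0.0028% of lysates. Endothelial miR-126a-3p made up 0.324% to 2.21% against at most 0.00295%, lymphocyte miR-150-5p 0.0639% to 0.187% against at most 0.00281%, and liver miR-122-5p 0.0902% to 1.20% against at most 0.0281%. The 4 stromal markers summed to 0.150% to 0.407% against at most 0.0401%, and the muscle pair to 0.0287% to 0.331% against at most 0.000939%. The 3 epithelial markers summed to 0.0258% to 10.5% against at most 0.0104%, and miR-205-5p was at 0 in all lysates. Their part in the exosome levels of the late-numbered annotations was not tested.

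Some lines under the 50-count minimum were also higher in exosomes. With a minimum of 20 counts, 11 late-numbered lines were called higher in exosomes in controls, adding miR-5106, miR-5110, miR-7086-3p, miR-8095 and miR-8109, with 18 to 46 exosome and 1 to 9 lysate counts each. miR-5106, miR-5110 and miR-8109 were also called with IL4, with adjusted p-values of 0.0099, 0.00518 and 0.00949 by edgeR's quasi-likelihood test. Given so few lysate counts, the added lines could pass the filter of about 32.7 CPM only through exosomes. A call in the other direction was hardly possible for them, so these calls are a description. Of all 338 lines, 29.3% were called higher in exosomes in controls and 30.2% with IL4.

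**Figure D3:**
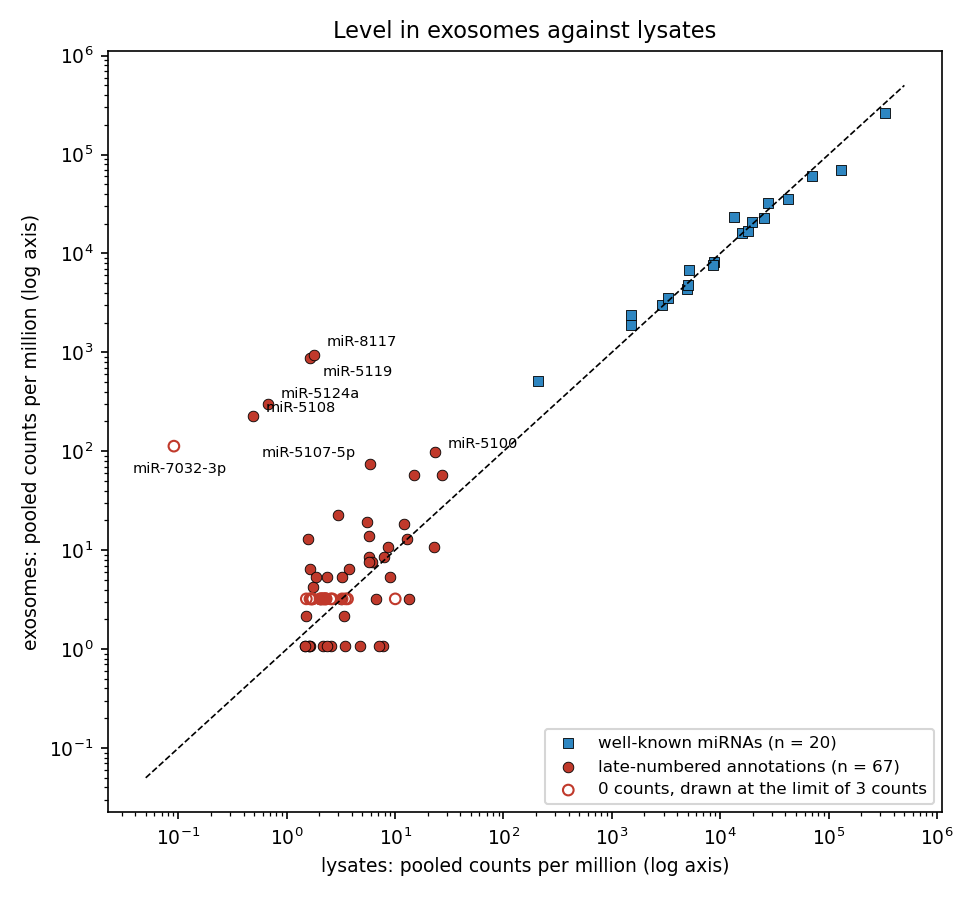
Pooled CPM of the 67 late-numbered annotations (red) and 20 well-known miRNAs (blue) in exosomes (vertical axis, log scale) against lysates (horizontal axis, log scale), with open symbols for 0 counts drawn at the limit that 3 counts give. The 5 exosome-high annotations lie far above the dashed line of equal level, with 113 to 950 CPM in exosomes. The other 62 lie between 1.49 and 27.3 CPM in lysates, a range that includes miR-8117 (1.79 CPM) and miR-5119 (1.64 CPM).

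The other 62 annotations had a steady sum in lysates, although single members such as miR-5114 and miR-5107-5p varied there, and 51 of them had counts in at most 3 of the 8 exosome libraries. miR-5100 was the one with counts in all 8. The 62 summed to 317 ± 36.5 CPM in lysates (SD, n = 6) and 580 ± 259 CPM in exosomes (SD, n = 8), and 58 of them had counts in all 6 lysates. Single annotations had pooled lysate levels of 1.49 to 27.3 CPM with a median of 2.59 CPM. At these levels 35 of the 62 would be expected at under 3 counts in all exosomes together, and 21 were at 0 there. Pooled ratios had counting intervals that included 1 for 48 of the 62, lay above 1 for 9 and below 1 for 5. These ratios use library totals alone, without the scaling of libraries used in the tests, so the side of 1 can differ between them. The share of all lines on each side is not given, so these numbers are a description. The highest of the 9 was miR-5107-5p with 12.7 (95% interval 9.53 to 16.8), followed by miR-6979-3p with 8.17 and miR-5129-5p with 7.51, and miR-5100 had 4.24 (3.38 to 5.27). The first and second of these rest on IL4 exosome replicate 3, which gave 51 of the 70 exosome counts of miR-5107-5p and 11 of the 12 of miR-6979-3p, and without it the ratios were 6.18 (3.64 to 9.92) and 1.22 (0.0303 to 7.11). Below 1 were miR-5103, with 0 exosome counts where 9.35 were expected, miR-5104 (0.140), miR-5113 (0.153), miR-7015-3p (0.240, 0.0493 to 0.705) and miR-7043-3p (0.470, 0.224 to 0.869). These intervals leave out the spread between libraries.

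The most abundant late-numbered annotations in lysates were miR-7688-5p, from an intergenic locus on chromosome 10, at 27.6 ± 6.15 CPM (SD, n = 6), miR-5100 at 23.1 ± 5.26 CPM, and miR-7043-3p, from an intron of Rassf4, at 23.1 ± 11.9 CPM. They ranked 225, 233 and 234 among all lines, and the spread between libraries was larger than the differences between these 3. Next came miR-8114, which lies in the 5′ UTR of Glul, the glutamine synthetase gene, at 15.4 ± 3.17 CPM, and miR-7015-3p at 14.2 ± 8.27 CPM. In exosomes miR-8117 and miR-5119, at 1825 ± 1492 and 1679 ± 1315 CPM (SD, n = 8), ranked 71 and 72 among all lines, and their means differed by less than the spread.

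**Figure D4:**
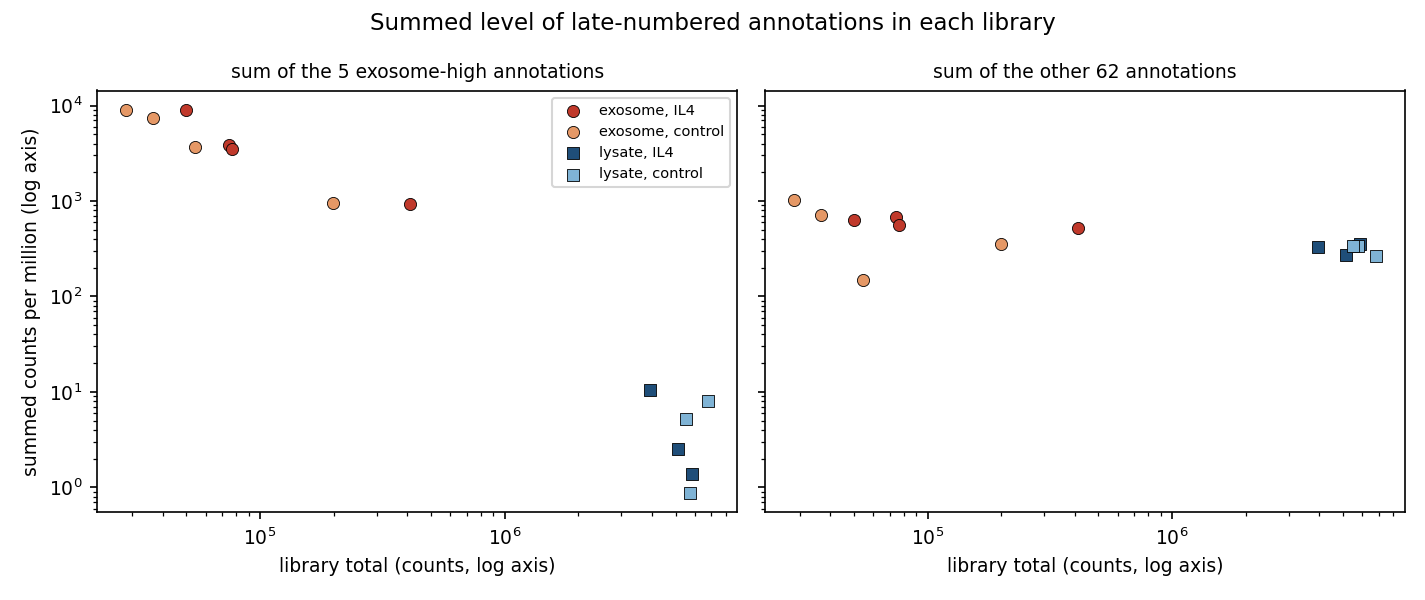
Summed CPM of the 5 exosome-high annotations (left) and of the other 62 (right) in each library (vertical axis, log scale) against the library total (horizontal axis, log scale). The 5 sum to 9044 CPM in the smallest exosome library and 930 CPM in the largest, and the other 62 lie between 147 and 1021 CPM in exosomes and between 268 and 351 CPM in lysates.

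With IL4 in lysates, 2 late-numbered annotations rose and 0 fell, of 51 tested. edgeR's quasi-likelihood test called 7.22% of all 443 lines there, 5.87% higher and 1.35% lower, so the 2 of 51 are no larger a share than that background. In bulk lysates, fewer cells of a type and less RNA per cell cannot be told apart. The median log2 change of the 51 was -0.08, with 24 above 0 and 27 below, against 0.00 over all tested lines.

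miR-5114, which lies within the Scd2 exon, had 69, 60 and 34 lysate counts with IL4 and 8, 5 and 12 in controls (replicates 1 to 3). Its level was 11.2 ± 4.33 CPM with IL4 and 1.44 ± 0.72 CPM in controls (SD, n = 3 each), higher on 3 of 3 dates with no overlap. The change was 8.83-fold (log2 3.14, SE 0.49, adjusted p = 0.0111), kept in 8 of 10 alternatives (adjusted p up to 0.0802) and lost without control replicate 2 or without IL4 replicate 2. Reads of this line cannot be told apart from fragments of Scd2 transcripts in a table of counts.

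miR-7015-3p had 96, 81 and 135 counts with IL4 and 51, 49 and 31 in controls, or 21.1 ± 4.96 against 7.24 ± 1.62 CPM (SD, n = 3 each). It was higher on 3 of 3 dates, again with no overlap. The change was 3.42-fold (log2 1.77, SE 0.32, adjusted p = 0.0201), kept in 6 of 10 alternatives (adjusted p up to 0.169) and lost without control replicate 2, control replicate 3, IL4 replicate 2 or IL4 replicate 3. For miR-5114, miR-7015-3p and miR-5107-5p below, the lack of overlap comes from the values that the test used and is a description. The share of all 443 lines without overlap is not given.

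The next 3 in the order of unadjusted p were not called. miR-5107-5p had 47, 58 and 62 lysate counts with IL4 and 4, 0 and 24 in controls, groups that did not overlap, with a log2 change of 3.02 (SE 0.98, adjusted p = 0.154). It was called with the date as a replicate block (3.45, adjusted p = 0.0311), by DESeq2 (2.98, adjusted p = 0.0276), with no filter on low counts (3.00, adjusted p = 2.51e-06) and without control replicate 3 (5.30, adjusted p = 0.0295). miR-7656-5p, in an intron of Slc9a9, had 7, 2 and 4 counts with IL4 and 21, 26 and 15 in controls (log2 change -1.80, SE 0.56, adjusted p = 0.139). miR-7688-5p had 204, 123 and 139 with IL4 and 183, 130 and 120 in controls, with overlapping CPM (0.57, SE 0.21, adjusted p = 0.247).

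**Figure D5:**
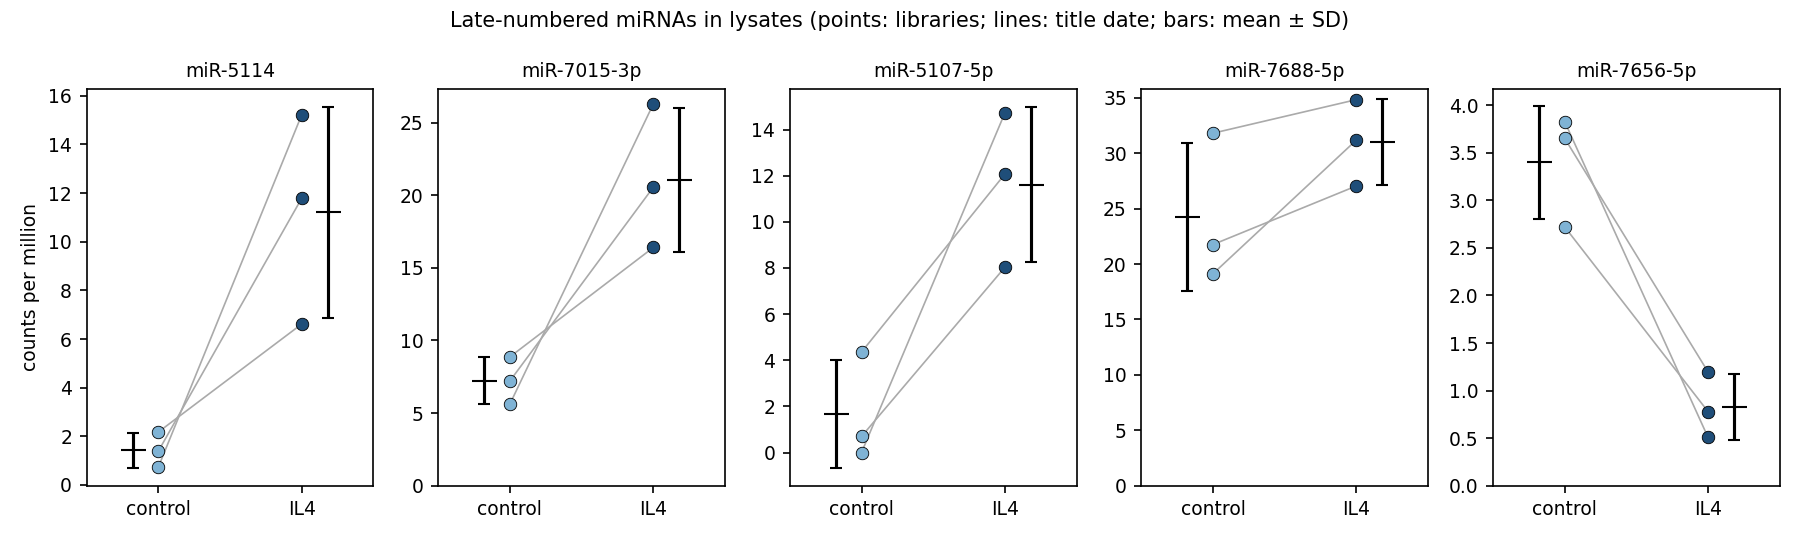
CPM of 5 late-numbered annotations in the 6 lysates (vertical axes), control and IL4 along the horizontal axis, with points for libraries, grey lines joining libraries of a date and bars for mean ± SD. The IL4 points of miR-5114, miR-7015-3p and miR-5107-5p all lie above their controls, those of miR-7656-5p below, and those of miR-7688-5p overlap.

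In exosomes no late-numbered annotation was called for IL4. edgeR's quasi-likelihood test called 0.549% of 182 lines (1 line). Of the 6 late-numbered annotations tested, 0 were called, 0 had an unadjusted p under 0.05, and DESeq2 called 0. Log2 changes were -0.99 for miR-5124a (SE 0.84), -0.63 for miR-7032-3p (SE 0.75), -0.48 for miR-5119 (SE 0.78), -0.44 for miR-5108 (SE 0.87), 0.38 for miR-5100 (SE 0.70) and 0.65 for miR-8117 (SE 0.95), with adjusted p-values of 0.86 to 0.891. Without control replicate 1 the change of miR-5124a was 0.23 and that of miR-5119 0.41, and without IL4 replicate 1 that of miR-8117 was -0.10. With the date as a replicate block 0 of the 6 were called either. In that fit the change was -0.77 for miR-5124a (unadjusted p = 0.027, adjusted p = 0.245), -0.37 for miR-5119 (adjusted p = 0.416) and 0.83 for miR-8117 (adjusted p = 0.396).

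For miR-5108, miR-5119 and miR-5124a, but not for miR-8117, counts and CPM differed on whether the level was higher with IL4. On all 4 exosome dates the IL4 library had the larger total, which lowers its CPM for a given count. The count was higher with IL4 on 3 of 4 dates for each of miR-5108, miR-5119, miR-5124a and miR-8117. In CPM, IL4 was higher on 0, 1, 0 and 3 of 4 dates in the same order. miR-5107-5p, which did not pass the filter in exosomes and so was not tested, had 1, 13, 51 and 3 exosome counts with IL4 and 0, 0, 2 and 0 in controls, and miR-5114 had 8 exosome counts and miR-7015-3p 3 in all 8 libraries together. The IL4 effects of the compartments were compared for 338 lines, of which 0 were called (0%) and 14 had an unadjusted p under 0.05. Of the 11 late-numbered annotations in that test 1 was among the 14, miR-5121 (log2 difference of effects -3.29, adjusted p = 0.995), and DESeq2 called 0.

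Position and sequence are given as a description, since many of these traits are shared with other lines of late number or low count. Of the 21 3p arms with a position, 13 ended exactly on the last base of an intron, against 0 of 159 among 3p arms of lines numbered under 1000 and 4 of 18 among those from 1000 up to 5000, all with at least 50 counts, and 97 of 284 among lines of any number under 50 counts. Their hosts were Ccnf, Dazap1, Ankrd52, Kifc5b, Ddx39b, Syvn1, Map4k2, Smap2, Pink1, Rassf4, Cherp, Terf2 and Dnase1l1, and as the last bases of introns all 13 ended in AG. miR-7043-3p is the most abundant of them, and its sequence, aCUGUGCCucucuguuuucag, closes with the pyrimidine-rich run and AG of a splice acceptor. These 13 had 2506 counts in lysates and 52 in exosomes, or 76.0 and 55.8 pooled CPM. With IL4 in lysates 12 were tested and 1, miR-7015-3p, was called, with a median log2 change of 0.04.

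By position, 37 of the 55 lay in an intron, 10 in an exon, 6 in an exon or an intron depending on the transcript, 1 antisense to a gene and 1 between genes. Of these 6, 2 (in Pink1 and Cherp) are also among the 13 that end on an intron's last base. The 16 in an exon of at least some transcripts had 2481 lysate and 97 exosome counts, and 1 of the 13 tested with IL4 in lysates was called, miR-5114. Mature lengths were 19 to 24 bases with a median of 21, and the median GC content was 54.5%, against 45.5% for lines numbered under 1000, 52.2% for those from 1000 up to 5000 and 54.5% for lines under 50 counts. The first base was U in 26 of 55 (47.3%), against 39.5%, 40.8% and 42.5% in the same order, and none of the 5 exosome-high sequences begins with U. A seed shared with another line was found for 7 of 55 (12.7%), against 38.9%, 6.1% and 15.1%. None of the 55 full-length sequences was found as an exact match in the GENCODE M21 transcripts of another gene. Inexact matches and RNAs outside that annotation were not searched. Both arms were members for miR-5129, miR-5134, miR-6967 and miR-7091, whereas the opposite arm of miR-7032-3p was not among the members and the other 4 exosome-high annotations carry no arm name.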

How the data were processed

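Per the labels' protocols, libraries were made with a NextFlex kit from exosomes purified on an OptiPrep gradient, and from lysates. The submitters' processing notes name cutadapt and mm10; for aligner, counter, annotation and strand use, the sources used here give nothing. The authors deposited raw counts per mature miRNA, with no normalization. Columns were matched to samples by title, and 0 were unused. Replicates differed beyond sampling noise (chi-square over its degrees of freedom at least 21.0).

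Two-sided tests used glmQLFit and glmQLFTest of edgeR 4.0.16 (R 4.3.3) after filterByExpr and TMM scaling, on the whole table with Benjamini-Hochberg adjustment over all tested lines and a threshold of 0.05, after tests on simulated data. Standard errors are the log2 difference over the square root of F. IL4 was tested within a compartment, and compartments and the difference of IL4 effects in 1 fit of 14 libraries. Departure from proportion was the coefficient of the log2 total beside the usual offset, and the exponent is 1 plus it. DESeq2 1.42.0, other filters, a date block and left-out libraries were alternatives. Positions were compared with GENCODE M21.

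The members, lists and tests were chosen with earlier results of these data known. Named were called members, or the 5 with the lowest unadjusted p where fewer were called, the 10 highest in each compartment, arm pairs and lines next to the minimum. By the labels each date pairs 1 IL4 with 1 control library, and deviations of pairs correlated at 0.19 to 0.72 in exosomes and 0.26 to 0.61 in lysates. Since PCR copies of a molecule are counted separately, intervals and floors take in counting error alone.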

Additional observations from a re-analysis of the deposited data

Results flagged for a closer look

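In each exosome group 1 library's total stood far above the other 3, by the 95% critical value of Dixon's test for 4 samples: 411671 counts with IL4 and 199025 in the control, both dated 5 April. These were 2 of 16 group summaries tested, of which chance alone would mark about 1 in 20. The exponents and correlations of the late-numbered annotations on library total draw most of their range from these libraries.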

How the results depend on the processing

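Counts of late-numbered annotations called kept within 1.5 times their main value in 115 of the comparisons with an alternative and moved further in 21. The 115 take in comparisons with 0 called both in the main fit and in every alternative, which say little on stability. These were 17 for IL4 in exosomes, 21 for the difference of IL4 effects, 12 for departure from proportion in lysates and 2 for correlation in lysates. Shares of all lines called with no filter are not given for lysates or between compartments, so those counts are a description. For IL4 in lysates (2 called), 4 were called with no filter on low counts, 1 with a minimum of 200 counts, 0 in 1 fit of all 14 libraries, where only 11 members passed the filter and neither miR-5114 nor miR-7015-3p was tested, and 0 to 3 with 1 replicate left out. Between compartments (6 called in each), 10 were called in controls (6 higher, 4 lower) and 11 with IL4 (7 higher, 4 lower) with no filter, 11 in controls with a minimum of 20 counts, and 13 with IL4 without the libraries of 25 January, an alternative added after the data were seen. Those 13 are more than the 11 members tested in the main fit, so more members passed the filter there. The share of all lines called in that alternative is not given, so the 13 are a description. For departure from proportion in exosomes (4 called), 0 were called with the date as a replicate block, 0 without the libraries of 5 April and 2 without those of 25 January. For correlation with the exosome total (2 called), 0 were called without the 2 libraries of 5 April, 4 with lines of at least 1 count, and 0 to 2 with 1 replicate left out. With 1 replicate left out, changes with IL4 in exosomes ran from -1.44 to 0.23 for miR-5124a and from -1.18 to 0.41 for miR-5119, both turned without control replicate 1, and from -0.10 to 1.65 for miR-8117, turned without IL4 replicate 1 and also without the libraries of 25 January (-0.10). The difference of IL4 effects for miR-5107-5p ran from -0.79 (without control lysate replicate 3) to 7.52, and the departure of miR-5119 turned under the replicate block (0.36). The cause of these shifts was not tested. The block changed no other call than those given here and that of miR-5107-5p with IL4 in lysates (3.45). Over all lines, IL4 calls in lysates numbered 32, against 14 with library size alone, 50 with the block, 4 in 1 fit of 14 libraries and 2 to 34 with 1 replicate left out. In exosomes they numbered 1, against 12 with no filter, 6 by DESeq2 and 0 with library size alone. Depth limits exosome values, where 1 count is worth 2.43 to 35.2 CPM.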
